A study of Mus musculus with 11 samples.

Results

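The 7 genes described here, Bmp6, Bmper, Fstl1, Bmpr2, Acvr1, Smad1 and Smad6, encode parts of bone morphogenetic protein (BMP) signaling, and each had 1 region in a table of 1652 differentially acetylated regions of atrial cardiomyocyte chromatin. A region was counted to a gene when the midpoint of its most significant 500 bp bin (the top bin) lay in the gene body or within 100 kb of it, and when no other protein-coding gene of RefSeq (mm10) was nearer. In all, 7 of 1652 regions met this rule. Since the table lists only regions that the authors had called different between the genotypes on these libraries, the levels below are a description and no independent evidence of that difference. A count test given further down serves only as a check on depth and single libraries. No region with a member as nearest gene lay beyond 100 kb, and the farthest inside was that of Smad6, at 43.2 kb.

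CUT&RUN, in which a nuclease tethered to an antibody frees the bound chromatin for sequencing, was used to map H3K27ac (acetylation of histone H3 at lysine 27), found at promoters and enhancers that are in use. The mutant group, Tbx5G125R/+ (n = 6), carried 1 allele of the T-box transcription factor Tbx5 with the p.G125R missense change, introduced into the germline by CRISPR-Cas9, and so present in every cell. The controls (n = 5) carried no label of genotype beyond that word. All mice were 8 to 12 weeks old, left and right atria were pooled, and nuclei were sorted for PCM1 (pericentriolar material 1), which marks cardiomyocyte nuclei. The sex of these mice is not given in the labels.

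BMP ligands are secreted dimers that bring together type II and type I receptor kinases at the cell surface. The type I receptor then phosphorylates Smad1, Smad5 or Smad9, which join Smad4, enter the nucleus and act on target genes. Secreted proteins such as Bmper and Fstl1 bind ligands outside the cell, and the inhibitory Smad6, itself a target of the pathway, feeds back on the receptors and Smad1. In the heart BMP signaling is known for its part in the atrioventricular canal, the endocardial cushions and the valves, where the T-box gene Tbx2 is among its targets.

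The deposited levels are normalised reads, that is, reads in the top bin divided by 1 size factor per library. Dividing them by the smallest step of each library gave whole reads in 100% of cases (within 0.05 reads). Reads in the listed top bins numbered 43183 to 161738 per Tbx5G125R/+ library and 27118 to 72442 per control library, with the lowest total in control replicate 5, in which 60.6% of the listed bins held no read. The marker lists moved with genotype as well. Of 14 cardiomyocyte markers, 3 (Actc1, Actn2 and Ryr2) had listed regions, all lower in the mutant, with a summed level of 280 to 367 in Tbx5G125R/+ and 756 to 1134 in control libraries. Of 10 fibroblast markers, 5 (Col1a2, Dcn, Lum, Pdgfra and Postn) had listed regions, all higher, with a summed level of 279 to 477 in Tbx5G125R/+ and 9.75 to 66.5 in control libraries. Of 12 endothelial markers, Kdr and Cdh5 had higher and Erg lower regions, with sums of 594 to 871 in Tbx5G125R/+ and 164 to 408 in control libraries. The mural and macrophage lists had 1 higher region each, at Rgs5 and Mrc1, and the endocardial, epicardial and neural lists had none. None of these listed marker bins was at 0 in every control library, but some held very few control reads. The control libraries together held 2 reads at a Lum bin, 3 at Rgs5 and 6 at Mrc1. Markers without a listed region, such as Pecam1, Tek and Col1a1, were not analysed here. Genes of the set, Bmp6, Bmper and Fstl1 among them, are also expressed by cells other than cardiomyocytes. A change in the cells behind the signal and a change of the mark within cardiomyocytes cannot be told apart in these sorted pools, and the part of other cell types in the BMP gene values was not tested.

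All 7 regions had a higher mean H3K27ac level in Tbx5G125R/+ than in control, and in all 7 every Tbx5G125R/+ library lay above every control library. Among all 1652 listed regions, 81.1% had a higher mean level in Tbx5G125R/+ and 73.2% had every Tbx5G125R/+ library above every control library. The direction of the 7 is therefore the usual one in this table. The median level of the 7 was 33.3 normalised reads in Tbx5G125R/+ and 2.82 in control, against 29.9 in Tbx5G125R/+ and 3.68 in control over all listed regions. Their median log2 ratio of mean levels was 3.50, against 3.34 over all listed regions, with regions without a control read at their bound.

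**Figure D1:**
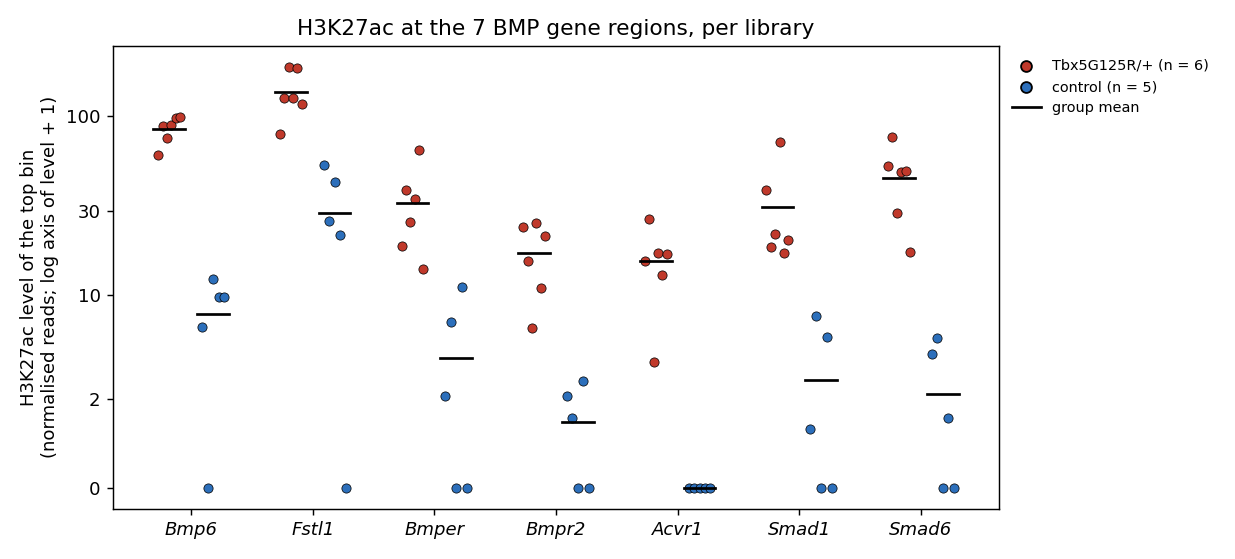
H3K27ac level of the top bin (normalised reads, log axis of level + 1) at the 7 BMP gene regions, with 1 point per library and a bar at each group mean. In each gene the 6 Tbx5G125R/+ points lie above the 5 control points, and the 5 control points of Acvr1 lie at 0.

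Bmp6, the ligand of the set, had the steadiest gain among the mutant libraries. BMP6 is a secreted BMP made by endothelial and other cells and is known as the signal through which the liver senses iron. Its region, 3.0 kb wide, lay on chromosome 13 from 38498501 to 38501500, at the far end of the gene (38345716 to 38500314, plus strand). The top bin (38499501 to 38500000) was centred 154 kb downstream of the start site and 0.564 kb before the annotated end of Bmp6, and its midpoint lay 0.516 kb from Txndc5, a protein disulfide isomerase gene that the region also overlaps. The assignment to Bmp6 rests on that position.

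In replicates 1 to 6 the Tbx5G125R/+ libraries held 61.1, 88.3, 76.1, 89.8, 98.4 and 99.1 normalised reads at Bmp6. Control replicates 1 to 5 held 6.39, 0, 12.4, 9.69 and 9.75. The 0 belonged to control replicate 2, the control library with the most reads in the listed bins. Whether depth had a part in the low control values was not tested. The means were 85.5 ± 14.6 (SD, n = 6) in Tbx5G125R/+ and 7.64 ± 4.77 (SD, n = 5) in control, an 11.2-fold ratio, and the lowest mutant library stood 4.94-fold above the highest control library. With a coefficient of variation of 17.0% among mutant libraries, Bmp6 varied least of the 7 genes.

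Of the secreted modulators, Fstl1 (follistatin-like 1), a glycoprotein that binds BMP4 and is known in the heart as an epicardial and fibroblast product, had the highest level in both genotypes and the smallest ratio. Its region of 14.5 kb on chromosome 16 (37782501 to 37797000) was the widest of the set. It lay inside the gene (37777055 to 37836516, plus strand), with the top bin at 37789501 to 37790000, 12.7 kb from the start site. Tbx5G125R/+ replicates 1 to 6 held 79.7, 126, 186, 126, 184 and 117 normalised reads, and control replicates 1 to 5 held 54.3, 26.6, 43.9, 22.2 and 0. The mutant range of 79.7 to 186 began 1.47-fold above the highest control library. Control replicate 5 stood apart with no read, while the other 4 held 16 to 51 reads each. The means were 136 ± 41.2 (SD, n = 6) in Tbx5G125R/+ and 29.4 ± 20.9 (SD, n = 5) in control, a ratio of 4.64. The log2 ratio was 2.21, and 1.89 without control replicate 5.

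Bmper, the vertebrate counterpart of the fly protein crossveinless-2, can restrain or promote BMP signaling by binding ligands. Its region was the narrowest, 1.5 kb on chromosome 9 (23249251 to 23250750), inside the 262 kb gene (23223076 to 23485215, plus strand), and its top bin (23249751 to 23250250) was centred 26.9 kb from the start site. The Tbx5G125R/+ libraries held 19.1, 39.7, 26.2, 35.1, 65.6 and 14.1 normalised reads in replicates 1 to 6. Control replicates 1 to 5 held 2.13, 6.81, 0, 11.1 and 0. The groups did not overlap, but they came closest here, since the lowest mutant library (replicate 6) was only 1.27-fold above the highest control library (replicate 4). The mean level was 33.3 ± 18.5 (SD, n = 6) in Tbx5G125R/+ and 4.0 ± 4.84 (SD, n = 5) in control, 8.31-fold apart.

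The receptor genes had the lowest mutant levels of the set. Bmpr2 encodes the type II receptor whose loss of function in humans underlies heritable pulmonary arterial hypertension. Its 5.25 kb region on chromosome 1 (59774001 to 59779250) lay inside the gene (59764279 to 59878081, plus strand), with the top bin at 59777251 to 59777750, 13.2 kb from the start site. Levels at Bmpr2 in Tbx5G125R/+ replicates 1 to 6 were 24.5, 15.6, 6.23, 25.8, 10.9 and 21.9 normalised reads, and control replicates 1 to 5 held 2.13, 1.36, 0, 2.77 and 0. Replicate 3 was the lowest mutant library and still stood 2.25-fold above the highest control library. The means were 17.5 ± 7.88 (SD, n = 6) in Tbx5G125R/+ and 1.25 ± 1.25 (SD, n = 5) in control, a ratio of 14.0 that rests on 160 mutant and 6 control reads.

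Acvr1 (ALK2), a type I receptor that phosphorylates Smad1 and is needed in mice for the endocardial cushions, was the 1 gene of the set without a control read. Its region on chromosome 2 (58479501 to 58492000) was 12.5 kb wide and lay inside the gene (58446438 to 58566828, minus strand). The top bin (58479501 to 58480000) sat at the edge of the region, 87.1 kb downstream of the start site. At Acvr1, Tbx5G125R/+ replicates 1 to 6 held 15.7, 27.4, 3.74, 17.5, 13.1 and 17.2 normalised reads, and all 5 control libraries held 0. The mutant libraries were thus all above 0, with replicate 3 the lowest as it was at Bmpr2. The mutant mean was 15.8 ± 7.64 (SD, n = 6). Against a floor of 3 reads over the control group, which is 0.662 normalised reads, Acvr1 was at least 23.8-fold higher in Tbx5G125R/+. At the mutant mean the control libraries would have held 71.5 reads in all under the deposited scaling. Whether depth had a part in the absence of control reads was not tested. The bound holds under the deposited scaling and covers counting error only. It does not cover the choice of the bin on these same libraries, and duplicated fragments are not independent molecules. Reads outside the top bin are not given per library, and the region need not have been empty in control.

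The Smad genes lay between the receptors and Bmp6. Smad1, which carries the BMP signal into the nucleus, had a 6.25 kb region on chromosome 8 (79380001 to 79386250), inside the gene (79338395 to 79399428, minus strand), with the top bin at 79383251 to 79383750, 15.9 kb downstream of the start site. Tbx5G125R/+ replicates 1 to 6 held 39.6, 19.0, 22.4, 72.2, 17.5 and 20.9 normalised reads. Control replicates 1 to 5 held 1.07, 7.49, 0, 5.54 and 0. Mutant replicate 4 was far above the rest, and 4 of the 6 mutant libraries lay between 17.5 and 22.4. The mean level was 31.9 ± 21.3 (SD, n = 6) in Tbx5G125R/+ and 2.82 ± 3.47 (SD, n = 5) in control, an 11.3-fold ratio. Smad1 had the largest coefficient of variation among mutant libraries, 66.7%.

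Smad6, the inhibitory Smad, was the 1 gene whose region lay outside the gene body. The gene (63953076 to 64022085, minus strand) starts at its right end on chromosome 9, and the 6.25 kb region (64064251 to 64070500, top bin 64065001 to 64065500) was centred on a bin 43.2 kb upstream of the start site. No gene of RefSeq overlapped it, and Lctl was the next nearest protein-coding gene, at 51.9 kb. Upstream of Smad6, Tbx5G125R/+ replicates 1 to 6 held 53.3, 77.1, 29.3, 49.5, 50.3 and 17.7 normalised reads, and control replicates 1 to 5 held 4.26, 5.45, 0, 1.38 and 0. The lowest mutant library, replicate 6, was 3.25-fold above the highest control library. With means of 46.2 ± 20.6 (SD, n = 6) in Tbx5G125R/+ and 2.22 ± 2.51 (SD, n = 5) in control, the ratio was 20.8, the largest among the 6 genes with control reads.

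**Figure D2:**
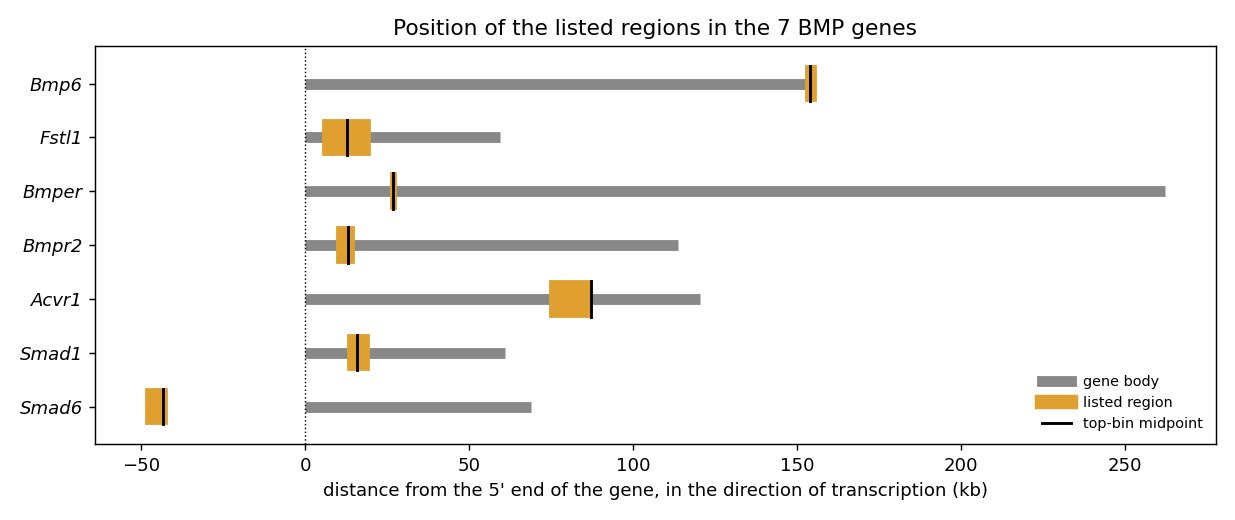
Position of each listed region (boxes) and its top-bin midpoint (black lines) along the 7 genes, in kb from the gene's 5′ end in the direction of transcription, drawn to scale. The bins of Fstl1, Bmpr2 and Smad1 lie 12.7 to 15.9 kb into the gene, that of Bmp6 at its far end, and that of Smad6 43.2 kb upstream.

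None of the 7 regions held the annotated start site of its gene, with 1 start checked per gene. The share of all listed regions that hold a start site was not counted, so this is no trait particular to the set. The nearest top bin, at Fstl1, was 12.7 kb away. Bins inside gene bodies made up 6 of the 7, against 63.1% of all listed regions. The latter share counts regions at any distance from a gene, whereas the 7 had to lie within 100 kb, so the shares are not like for like. The exon and intron structure was not analysed here. The median width of the 7 was 6.25 kb, against 3.0 kb over all listed regions, and Bmper (1.5 kb) and Bmp6 (3.0 kb) were not above that value. Within 1 Mb of the top bin, Bmper, Acvr1 and Smad1 had no other listed region, Bmp6 had 1 and Bmpr2, Smad6 and Fstl1 had 2 each. Of these, 1 was lower in the mutant, a region 240 kb from the Fstl1 bin that was assigned to Rabl3, with mean levels of 82.4 in Tbx5G125R/+ and 220 in control.

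The regions themselves could not be read as sequence here, and the promoters of the 7 genes were searched instead. The letters were those that BMP Smads and T-box factors are known to bind, and a GATA, an E-box and a MEF2 motif. The windows (RefSeq, GRCm38.p6) held 250 bases before to 50 after the start, read on both strands. All 7 genes matched, with 1 window each. The T-box letters GGTGTGA were in none of the 7 windows and in 3.68% of 21263 windows of protein-coding genes. The BMP Smad element GGCGCC was in that of Bmpr2 only, against 15.3% of all windows, and the Smad palindrome GTCTAGAC in that of Smad6 only, against 0.226%. The GATA letters AGATAA, the E-box CAGCTG and the MEF2 motif were in none of the 7, against 9.65%, 15.6% and 3.47% of all windows. GGCGCC is more frequent in GC-rich sequence, and the windows of the 7 genes had 59.3% to 83.7% G and C, against a median of 56.3%. The promoters of Bmpr2 and Smad6 are shown since they hold these Smad letters, in capitals, at base 146 of the Bmpr2 window (chr1:59764029-59764328, plus strand) and at base 247 of the Smad6 window (chr9:64022010-64022309, minus strand), where base 251 is the annotated start. Neither window overlaps the listed region of its gene.
Bmpr2: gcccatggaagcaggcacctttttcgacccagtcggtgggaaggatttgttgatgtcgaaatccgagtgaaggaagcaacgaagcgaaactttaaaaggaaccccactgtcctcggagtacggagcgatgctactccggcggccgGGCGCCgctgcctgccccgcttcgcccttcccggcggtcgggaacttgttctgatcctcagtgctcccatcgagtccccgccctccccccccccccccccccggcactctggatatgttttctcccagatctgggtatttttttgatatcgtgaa
Smad6: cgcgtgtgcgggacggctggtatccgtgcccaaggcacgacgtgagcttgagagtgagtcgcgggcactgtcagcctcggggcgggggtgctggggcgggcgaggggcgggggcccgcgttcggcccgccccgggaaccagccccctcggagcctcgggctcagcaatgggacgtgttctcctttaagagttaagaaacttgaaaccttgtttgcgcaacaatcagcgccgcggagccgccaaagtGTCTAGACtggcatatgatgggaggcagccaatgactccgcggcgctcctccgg

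Among the mutant libraries the order of levels was Fstl1, Bmp6, Smad6, Bmper, Smad1, Bmpr2 and Acvr1. Fstl1 exceeded Bmp6 in 6 of 6 libraries, and Bmp6 exceeded Smad6 in 6 of 6. The next neighbours were less distinct. Smad6 exceeded Bmper in 5 of 6 libraries, with a mean difference of 12.9 ± 20.2 normalised reads (SD, n = 6), and Smad1 exceeded Bmpr2 in 5 of 6, by 14.4 ± 17.0 (SD, n = 6). Bmper exceeded Smad1 in 3 of 6 libraries and Bmpr2 exceeded Acvr1 in 4 of 6, with mean differences of 1.34 ± 30.3 and 1.72 ± 7.73 normalised reads (SD, n = 6), smaller than their spread. All top bins have the same length, so these levels can be set side by side.

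No single mutant library carried the gains of the set as a whole, though single genes leaned on 1 library. Without mutant replicate 4 the log2 ratio of Smad1 fell from 3.50 to 3.08. Without mutant replicate 5 that of Bmper fell from 3.06 to 2.74. Summed over the 7 bins, the level ran from 293 (replicate 1) to 440 (replicate 5) in Tbx5G125R/+ and from 9.75 (replicate 5) to 70.3 (replicate 1) in control. Replicates 2 and 4 of the mutant were each the highest library at 2 genes, and replicates 3, 5 and 6 at 1 gene each. In the controls, replicate 5 had reads only at Bmp6 and replicate 3 only at Bmp6 and Fstl1. No mutant library was at 0 in any of the 7 bins. Over all listed bins, 33.8% held no read in control replicate 3 and 60.6% in control replicate 5. In the mutant libraries that share was 0.182% to 5.63%, so empty bins were mostly a matter of control libraries across the whole table. When each of the 11 libraries was left out in turn, the log2 ratio stayed between 3.16 and 3.73 at Bmp6, 1.89 and 2.56 at Fstl1, 2.73 and 3.90 at Bmper, 3.48 and 4.32 at Bmpr2, 3.08 and 4.27 at Smad1, and 4.06 and 5.03 at Smad6. The log2 of the bound at Acvr1 ran from 4.01 to 4.78.

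**Figure D3:**
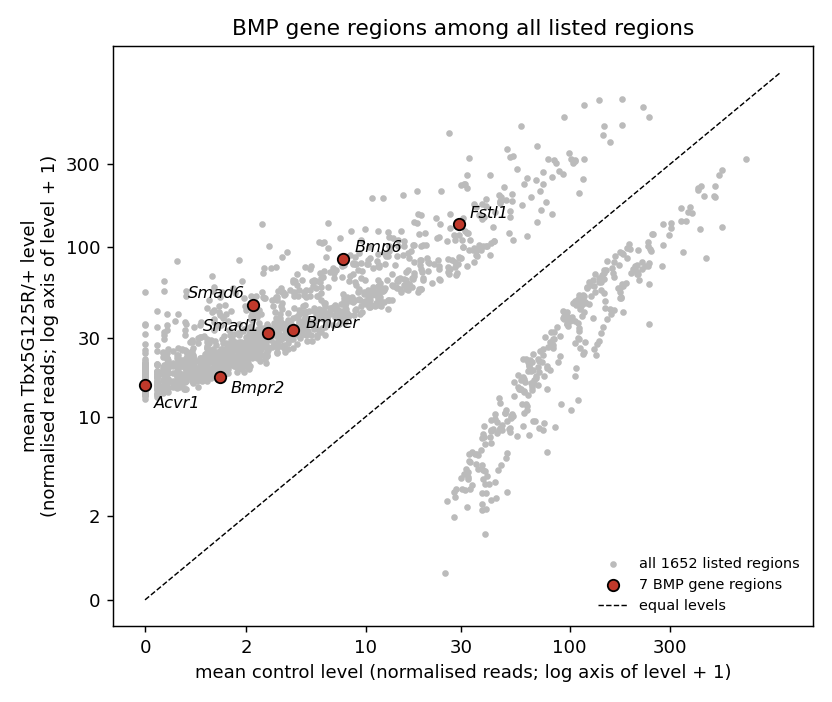
Mean H3K27ac level in Tbx5G125R/+ against that in control for all 1652 listed regions (grey) and the 7 BMP gene regions (red), in normalised reads on log axes of level + 1, with a dashed line at equal levels. All 7 lie above the line among the other gains, from Acvr1 at a control level of 0 to Fstl1 at 29.4.

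Set against the whole table by mean mutant level of the top bin, Fstl1 and Bmp6 were among the high bins and the receptors among the low ones. The signal of the whole regions is not given, so these ranks hold for the top bins only. A lower mean mutant level than Fstl1 was found in 93.8% of the listed regions and a lower one than Bmp6 in 87.1%. For Bmpr2 and Acvr1 these shares were 15.3% and 10.4%. By mean control level the shares were 75.1% for Fstl1, 61.7% for Bmp6, 27.1% for Bmpr2 and 0% for Acvr1. In the size of the ratio the order was different, with a smaller log2 ratio than Smad6 and Bmpr2 in 74.1% and 61.5% of the regions and a smaller one than Fstl1 in 28.9%, where regions without a control read were taken at their bound. Acvr1, for which the ratio is itself a bound, was not placed in this order. The listed regions most like those of the set, by the mean absolute difference of log2(level + 1) over the 11 libraries, lay at Nrp2 for Bmp6 (0.64), Septin4 for Fstl1 (0.41), Poc1a for Bmper (0.37), Edn3 for Bmpr2 (0.41), Bod1 for Acvr1 (0.31), Ccdc57 for Smad1 (0.41) and Mvp for Smad6 (0.48).

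An edgeR quasi-likelihood test on the recovered reads, fitted over all 1652 bins, called all 7 bins as increased, against 74.0% of the listed bins. The bins had been chosen on the same reads, so its calls support nothing beyond that check. Its log2 fold was 3.55 ± 0.55 (SE) at Bmp6, 2.17 ± 0.43 at Fstl1, 4.11 ± 0.74 at Smad6, 3.65 ± 0.76 at Bmpr2, 3.31 ± 0.79 at Smad1 and 2.93 ± 0.77 at Bmper. Bmp6, Fstl1, Bmpr2, Acvr1 and Smad6 passed with all libraries and without each library in turn. Over all 1652 bins, 1016 to 1144 were called as increased when 1 library was left out. Bmper was lost without any 1 of the 6 Tbx5G125R/+ libraries and without control replicates 1, 3 or 5, and Smad1 was lost without Tbx5G125R/+ replicate 4 or control replicate 1. Trimmed mean of M values (TMM) scaling on the listed bins takes most of them as unchanged. With it all 7 kept a higher mean level in the mutant. However, the median log2 ratio over all listed regions shifted by -1.77 and the log2 ratio of Fstl1 became 0.42. Only Acvr1 passed, and the log2 of its bound fell from 4.57 to 2.85.

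Beyond the 7, a list of 66 further genes of the pathway held 5 with a listed region, 3 higher (Gdf6, Tbx2 and Ski) and 2 lower (Twsg1 and Chrdl2). Over the whole genome 1247 protein-coding genes had a listed region within 100 kb, beside 21263 promoter windows of protein-coding genes. Whether pathway genes had a region more often than other genes was not tested. With the 7 included, which each have a region by the choice of the set, the 73 genes held 12 regions, 10 higher and 2 lower. Among all listed regions, 81.1% were higher and 18.9% were lower. Both lower regions lay in genes of secreted BMP-binding proteins, so the 4 extracellular modulators with a region, Bmper, Fstl1, Twsg1 and Chrdl2, went in both directions, whereas the ligands, receptors and Smads with a region were all higher, a difference that was not tested. No listed region was assigned to the other ligands, among them Bmp2, Bmp4, Bmp7 and Bmp10, to the type I receptor genes Bmpr1a and Bmpr1b, to Smad4, Smad5, Smad7 or Smad9, to the antagonists Nog, Chrd and Grem1, or to the target genes Id1, Id2 and Id3.

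Gdf6, a ligand of the BMP family known for joint and skull formation, had its region on chromosome 4 (9841001 to 9846000), with the top bin 0.122 kb from the gene body. For Gdf6, Tbx5G125R/+ replicates 1 to 6 held 36.7, 66.5, 80.4, 21.7, 41.6 and 91.8 normalised reads. Control replicate 3 held 1.12, a single read, and the other 4 control libraries held 0. The groups were far apart. The means were 56.4 ± 27.4 (SD, n = 6) in Tbx5G125R/+ and 0.225 ± 0.503 (SD, n = 5) in control, a ratio of 251 with a 95% exact Poisson interval of 45.9 to 10100 from the control count alone.

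Tbx2, a T-box repressor that BMP signaling induces in the atrioventricular canal, had a region on chromosome 11 (85842751 to 85847500), 3.80 kb from the gene. Its level was 10.6 to 46.4 in the Tbx5G125R/+ libraries and 0 to 6.92 in the control libraries, with means of 29.2 ± 15.8 (SD, n = 6) in Tbx5G125R/+ and 2.61 ± 3.59 (SD, n = 5) in control, an 11.2-fold ratio. Ski, a corepressor that binds Smads, had a region inside the gene on chromosome 4 (155181751 to 155209750). Its level was 3.91 to 45.5 in Tbx5G125R/+, and in control replicate 1 held 2.13 and the other 4 libraries 0. The mutant and control libraries did not overlap at either gene.

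Twsg1 (twisted gastrulation), which binds BMPs together with chordin, had a region inside the gene on chromosome 17 (65937001 to 65941250). In Tbx5G125R/+ replicates 1 to 6 the Twsg1 bin held 29.4, 13.4, 18.1, 9.29, 10.9 and 17.2 normalised reads, and control replicates 1 to 5 held 49.0, 51.1, 55.1, 49.9 and 64.4. The controls were close to each other and all above the mutant libraries. The means were 16.4 ± 7.22 (SD, n = 6) in Tbx5G125R/+ and 53.9 ± 6.30 (SD, n = 5) in control, 3.29-fold lower in the mutant. Chrdl2 (chordin-like 2), a secreted BMP antagonist, had a region inside the gene on chromosome 7 (100009501 to 100015000). Tbx5G125R/+ replicates 1 to 6 held 16.6, 16.2, 11.2, 10.3, 0 and 2.09 normalised reads, and control replicates 1 to 5 held 35.1, 75.6, 116, 95.6 and 17.6. Here the controls were spread widely, and the lowest of them, replicate 5, was just above the highest mutant library. The mean was 9.41 ± 6.99 (SD, n = 6) in Tbx5G125R/+ and 67.9 ± 41.0 (SD, n = 5) in control, 7.22-fold lower in the mutant.

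**Figure D4:**
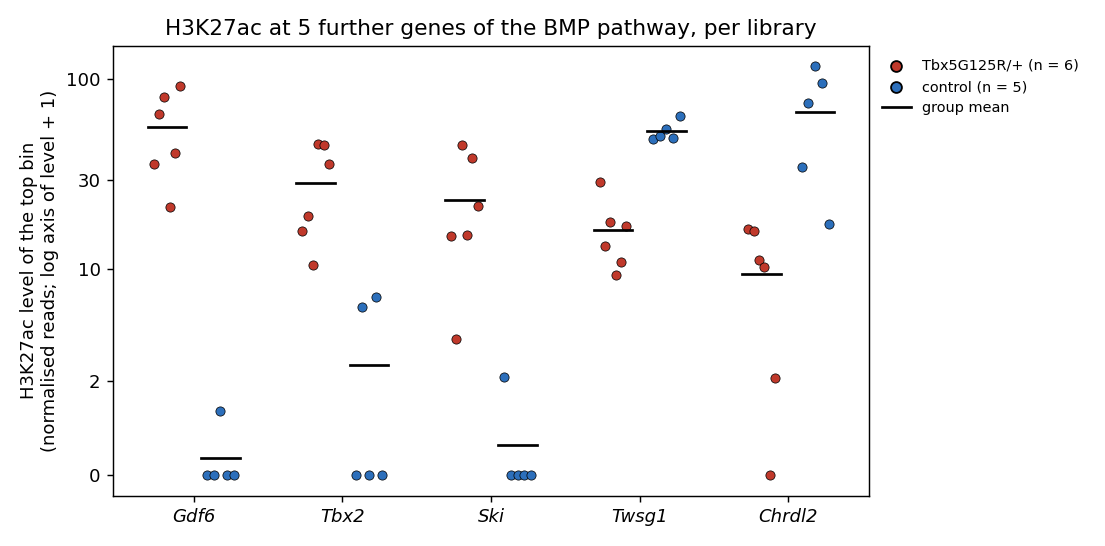
H3K27ac level of the top bin (normalised reads, log axis of level + 1) at 5 further pathway genes, with 1 point per library and a bar at each group mean. The Tbx5G125R/+ points lie above the control points at Gdf6, Tbx2 and Ski and below them at Twsg1 and Chrdl2.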

How the data were processed

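CUT&RUN for H3K27ac was done on PCM1+ nuclei of atria from 6 Tbx5G125R/+ and 5 control mice, grouped by the labels. BWA, bedtools and DESeq2 and the build mm10 stand in the submitters' processing notes, without versions or parameters. The authors deposited 1 table of called regions, with the signal of each library in the top bin as a normalised read count. Its log2 fold changes and adjusted p-values, the authors' own comparison, were not used, and regions that were not called were not analysed here. Coordinates are given 1-based.

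Whole reads were recovered from the steps of the values, 1 read being worth 0.489 to 2.19 normalised reads. Direction and ratio are those of mean levels, Tbx5G125R/+ over control. The count test used edgeR 4.0.16 (R 4.3.3) with the deposited size factors, with a threshold of 0.05 after Benjamini-Hochberg adjustment over 126854 tests, the highest region number in the table. DESeq2 1.42.0, TMM scaling, no scaling, a filter on low counts, other distance limits, log2(level + 1) and log2(level + 0.5), a replicate block and leaving out each library were tried. The scripts were tested on simulated data. The genes and lists were chosen with earlier results of these data known. Every region of the 7 genes is described, further pathway genes are named where they have a listed region, and for each of the 7 the most alike listed region of another gene is named.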

Additional observations from a re-analysis of the deposited data

How the results depend on the processing

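The 7 regions were higher in Tbx5G125R/+ and none was lower with each library left out, with no scaling and with TMM factors on the listed bins. With the gene body as the limit 6 regions were left, all higher, and with 50 kb or with the midpoint of the whole region all 7 were. The median log2 ratio of the 7, 3.50, ran from 3.43 to 3.90 without single libraries. It was 1.77 under TMM factors, a scaling that takes most listed bins as unchanged, 4.38 with no scaling, 3.48 as a difference of mean log2(level + 1) and 3.97 with a pseudocount of 0.5. The count test called 7 of the 7 bins with edgeR and with DESeq2, 6 with a filter on low counts, 5 to 7 without single libraries and 1 with TMM factors. With the filter 1007 of 1485 tested bins were called as increased, and without single libraries 1016 to 1144 of 1652 were. Over all listed bins edgeR called 1223 as increased and 214 as decreased, against 146 and 313 with TMM factors. Increases thus made up 85.1% of the calls with the deposited size factors and 31.8% with TMM. DESeq2 called 1337 and 310. With the replicate number as a block edgeR called 5 of the 7 (not Bmper and Smad1), and 700 bins as increased and 74 as decreased over the table. Libraries of the same number did not deviate together (correlations -0.15 to -0.02), no control correlated best with its own number, and the labels share only a number. The control values rest on few reads, 0 to 29 in 6 of the 7 bins.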
